A study of Mus musculus with 3 samples.

Results

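Gfap, Vim, Nes and Synm encode intermediate filament proteins that astrocytes use, and their ribosome-bound transcripts were followed in mouse brain after stroke. The 4 genes were chosen by symbol, and all 4 were found among the 16610 genes of the table. The groups were the left hemisphere of animals with occlusion of the middle cerebral artery (MCAO, which models ischaemic stroke), their right hemisphere (contralateral) and the right hemisphere of a control group that had no MCAO. The occlusion lasted 1 h and all tissue was taken after 3 days, from the middle section of the hemisphere. Each group was 1 library made from a pool of 3 animals. All 3 groups went through a RiboTag pull-down, in which a tagged ribosomal protein is precipitated with the transcripts bound to it. The series title names astrocytes, while strain, age and the driver of the tagged protein were not given in the sources used here. No group was a left hemisphere without MCAO, so side and occlusion cannot be told apart.

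Intermediate filaments are rope-like polymers that give cells mechanical strength. Glial fibrillary acidic protein (Gfap) and vimentin (Vim) are type III proteins that can form filaments by themselves. Nestin (Nes) and synemin (Synm) are large proteins with long tails that need partners such as vimentin to assemble. Astrocytes that react to injury are known for enlarged filament bundles, and nestin is otherwise known from neural progenitor cells.

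The promoters of the 4 genes are shown because 3 of the transcripts were far higher in the MCAO left hemisphere and 1 was not. Each line gives the 250 bases before the RefSeq gene start (GRCm38.p6), 5′ to 3′ in the direction of the gene, and capitals mark matches to the motifs named after them.
Gfap promoter, chr11:102897201-102897450, minus strand: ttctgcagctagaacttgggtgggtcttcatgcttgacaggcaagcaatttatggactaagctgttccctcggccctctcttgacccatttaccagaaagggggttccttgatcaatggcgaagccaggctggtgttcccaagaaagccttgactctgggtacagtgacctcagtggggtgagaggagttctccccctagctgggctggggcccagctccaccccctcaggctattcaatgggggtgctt
Vim promoter, chr2:13574061-13574310, plus strand: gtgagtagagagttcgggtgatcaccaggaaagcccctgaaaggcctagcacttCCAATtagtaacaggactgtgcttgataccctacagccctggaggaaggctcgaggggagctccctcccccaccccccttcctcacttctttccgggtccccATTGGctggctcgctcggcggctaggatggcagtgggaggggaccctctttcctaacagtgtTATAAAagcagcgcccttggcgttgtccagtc
Nes promoter, chr3:87970843-87971092, plus strand: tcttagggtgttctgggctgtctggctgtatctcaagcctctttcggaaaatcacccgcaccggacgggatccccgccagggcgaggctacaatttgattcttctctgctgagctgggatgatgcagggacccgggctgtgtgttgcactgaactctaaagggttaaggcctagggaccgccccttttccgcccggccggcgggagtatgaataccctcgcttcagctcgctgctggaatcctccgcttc
Synm promoter, chr7:67759743-67759992, minus strand: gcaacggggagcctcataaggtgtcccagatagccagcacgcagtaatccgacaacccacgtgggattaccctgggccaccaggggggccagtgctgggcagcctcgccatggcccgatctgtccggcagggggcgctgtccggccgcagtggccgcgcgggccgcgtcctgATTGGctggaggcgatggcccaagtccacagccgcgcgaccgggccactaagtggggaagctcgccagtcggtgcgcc

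Motifs were searched on both strands. The TATA box was read as TATAAA and the CCAAT box by the letters of its name. The STAT motif, bound by factors such as Stat3, was read as TTCNNNGAA. The AP-1 motif, bound by Fos and Jun proteins, was read as TGANTCA. No match overlapped another. The Vim window held the TATA box, beginning at position -32 from the gene start, and a CCAAT box at -196 and, on the opposite strand, at -94. The Synm window held 1 CCAAT box, on the opposite strand at -78. No match lay in the Gfap and Nes windows, which says only that these letters were not in those 250 bases. Of 32851 RefSeq promoter windows of this length, 12.4% held the TATA box, 33.8% the CCAAT box, 7.02% the STAT motif and 6.75% the AP-1 motif. The Synm window was 70.0% G and C, against 55.6% for Gfap, 58.4% for Vim and 58.8% for Nes, and the median window was 52.4%.

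In the MCAO left hemisphere Gfap, Vim and Nes were 12.9, 20.3 and 13.4 times the control, and Synm was 0.922 times the control. The order of the libraries was the same for Gfap, Vim and Nes, with the MCAO left hemisphere highest, the contralateral library next and the control lowest. Values are normalised read counts, that is reads scaled by 1 size factor for each library. Because each group had 1 library, differences have no replicate check and carry no p-value. Intervals in parentheses are 95% counting intervals from the recovered reads, which cover counting error only.

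**Figure D1:**
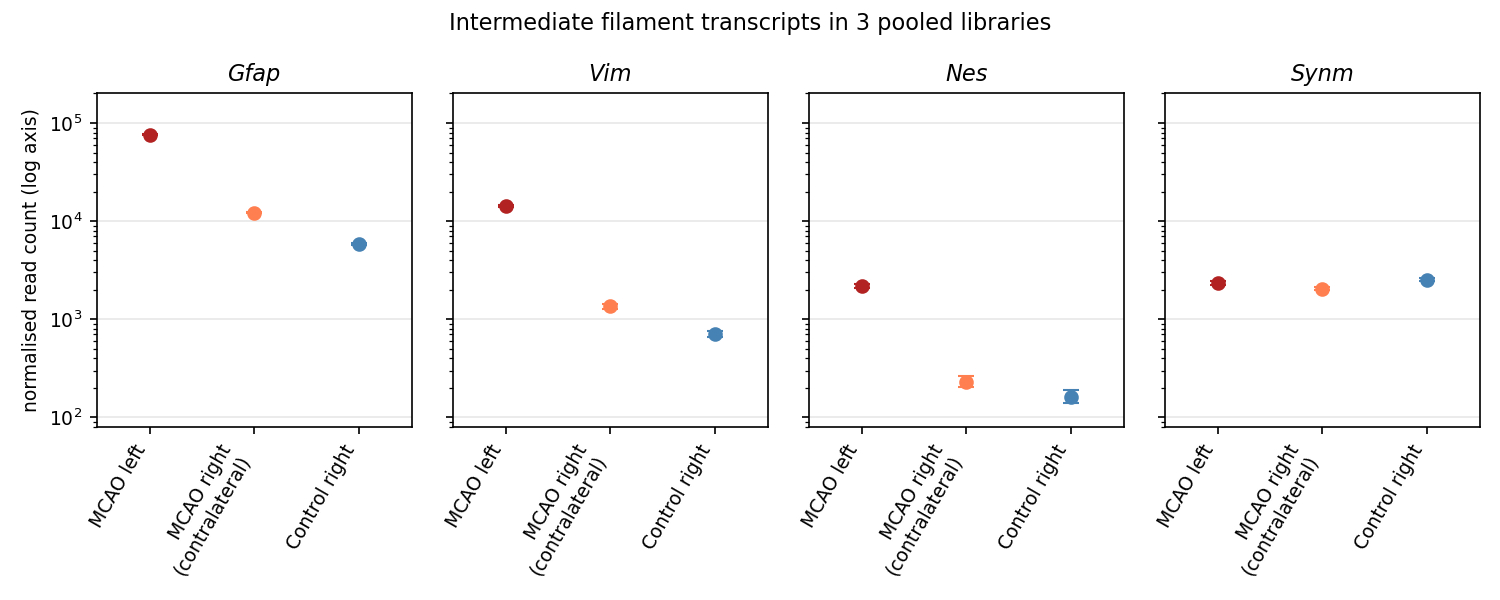
Normalised read count (log axis) of each gene in the MCAO left, contralateral right and control right libraries; points are single libraries and bars are 95% Poisson counting intervals. Gfap, Vim and Nes stand highest in the MCAO left library, at 76049, 14359 and 2182, and Synm lies between 2049.6 and 2537 in all 3 libraries.

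Gfap, the filament protein most used to mark reactive astrocytes, lies on chromosome 11 (102887336 to 102897200). It had 76049 normalised counts in the MCAO left hemisphere, 12202 in the contralateral library and 5903 in the control. These rested on 64653, 13752 and 6095 reads. Its transcripts alone took 0.249% of all recovered reads in the MCAO left library, 0.0406% in the contralateral library and 0.0191% in the control. Gfap in the MCAO left library was 12.9 times the control (12.5 to 13.2) and 6.23 times the contralateral value (6.12 to 6.35). Of 14906 genes tested, 24 had a larger log2 difference from the control than Gfap.

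Vim, encoding vimentin, lies on chromosome 2 (13574311 to 13582826). It had 14359 normalised counts in the MCAO left hemisphere, 1351 in the contralateral library and 707 in the control. The MCAO left value was 20.3 times the control (18.8 to 21.9) and 10.6 times the contralateral value (10.1 to 11.2), the highest of both ratios among the 4 genes. Against the control 12 of the 14906 genes had a larger log2 difference than Vim.

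Nes, encoding nestin, lies on chromosome 3 (87971093 to 87980451) and had the fewest reads of the 4 in each library. It had 2182 normalised counts in the MCAO left hemisphere, 232 in the contralateral library and 163 in the control, from 1855, 261 and 168 reads. The MCAO left value was 13.4 times the control (11.4 to 15.8) and 9.42 times the contralateral value (8.27 to 10.8). Against the control 21 genes had a larger log2 difference than Nes.

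Synm, encoding synemin, lies on chromosome 7 (67730161 to 67759742). It had 2338 normalised counts in the MCAO left hemisphere, 2049.6 in the contralateral library and 2537 in the control, from 1988, 2310 and 2620 reads. The MCAO left value thus lay between both right hemispheres, at 0.922 times the control (0.869 to 0.977) and 1.14 times the contralateral value (1.07 to 1.21). Its log2 difference from the control, -0.12, stood at percentile 36.0 of all genes tested, where Gfap, Vim and Nes stood above percentile 99.8. No other gene of the RefSeq table overlapped the span of any of the 4 genes.

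**Figure D2:**
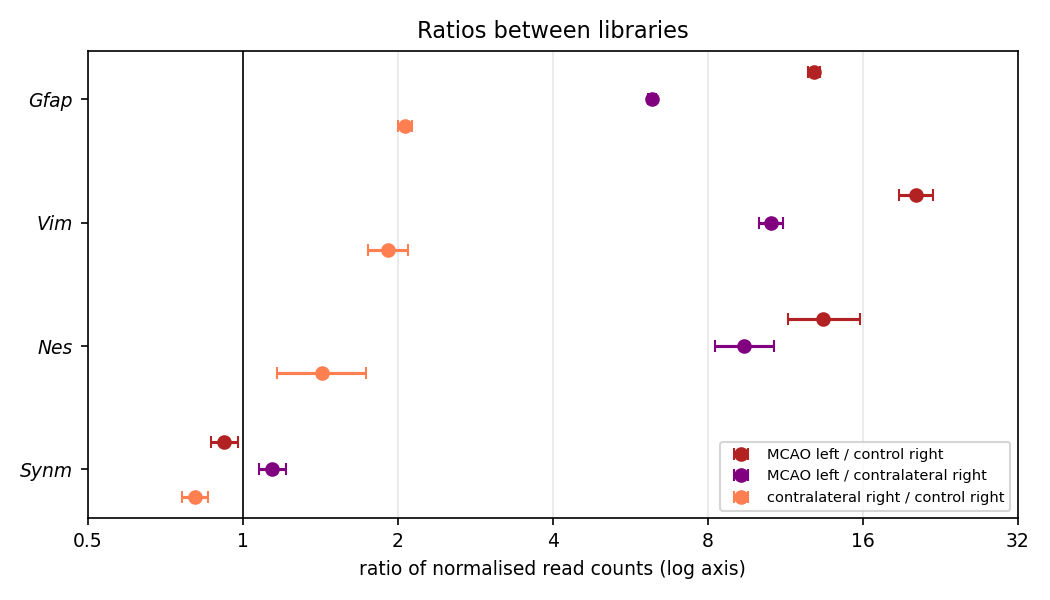
Ratio of normalised read counts (log axis) between libraries for each gene, with 95% exact counting intervals. Gfap, Vim and Nes lie at 12.9, 20.3 and 13.4 for the MCAO left library over the control, while the 3 ratios of Synm lie between 0.808 and 1.14.

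A gene was counted as higher where its log2(value + 5) exceeded that of the control by 1 or more, a 2-fold difference, and 3 of the 4 genes were in the MCAO left hemisphere. Over all genes tested, which had a mean of at least 20 normalised counts over the 3 libraries, 4.12% were, and the median difference was -0.0027. All 4 filament genes met that mean. Gfap, Vim and Nes also passed that size against the contralateral library, as did 3.18% of all genes. None of the 4 was 2-fold lower in either comparison, against 1.25% and 4.96% of all genes. Both comparisons share the MCAO left library. The 4 genes together held 0.311% of the recovered reads in the MCAO left library, 0.0527% in the contralateral library and 0.0302% in the control.

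The 4 genes also differed from each other in the size of their ratio. Over the control, the ratio of Vim was 1.58 times that of Gfap (1.46 to 1.71) and 1.51 times that of Nes (1.27 to 1.804). The ratios of Nes and Gfap differed by less than their counting error, at 1.04 (0.887 to 1.22). Over the contralateral library the ratio of Nes was 1.51 times that of Gfap (1.33 to 1.72), and that of Vim was 1.705 times that of Gfap (1.61 to 1.804). The ratio of Synm to the control was 0.0715 times that of Gfap (0.0671 to 0.0763). These comparisons are of ratios, since transcript lengths were not used here and levels of different genes cannot be set against each other.

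Opposite the occlusion, the contralateral right hemisphere had more Gfap, Vim and Nes than the control right hemisphere, by far less than the MCAO left hemisphere. Gfap was 2.07 times the control (2.01 to 2.13), Vim 1.91 times (1.75 to 2.09) and Nes 1.42 times (1.17 to 1.74). Synm was 0.808 times the control (0.763 to 0.855). Gfap was the 1 gene of the 4 past the 2-fold size, while 5.17% of all genes were, and its log2 difference of 1.05 fell to 0.97 when libraries were scaled to their astrocyte identity genes. The percentiles of the log2 differences were 95.01 for Gfap, 94.5 for Vim, 89.7 for Nes and 12.2 for Synm. Genes that met the filter only through the contralateral library lower these percentiles and raise the share of 5.17%. Among them are 14 male germ cell genes described below, the smallest of whose differences was 4.13. With a mean of at least 100, 188 of 12437 genes were past the 2-fold size. The ratio of Gfap was 1.45 times that of Nes (1.19 to 1.77), and 1.08 times that of Vim (0.985 to 1.19). None of the 4 was 2-fold lower, against 0.362% of all genes.

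The contralateral library stood apart from the other libraries. Of 14 male germ cell genes, all 14 passed the 2-fold size over the control there, beside 5.17% of all genes, with a median log2 difference of 6.69. Their values were at most 9.41 in the MCAO left library and 7.75 in the control, and at least 106 in the contralateral library. Genes this low in the other libraries met the filter only by being high there, so the count of 14 cannot be weighed against that share. The summed normalised count of the 14 genes was 10757 in the contralateral library and 43.8 in the control. In the MCAO left library that sum was 34.6. The part of these transcripts in the contralateral values of the filament genes was not tested. The ratios of the MCAO left hemisphere to the control use no counts of the contralateral library. Whether that library entered the size factors was not given, and the filter behind the ranks, percentiles and shares used all 3 libraries.

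Of the other intermediate filament genes 1 of the 21 tested was counted as higher in the MCAO left hemisphere than the control. That count is near the share over all genes, 4.12%. Among 45 genes in the lists of lamins, neurofilaments and related neuronal genes, muscle and lens genes and keratins, 22 were in the table and 21 were tested. Of the 21 none was 2-fold lower than the control, against 1.25% of all genes, and the median log2 difference was 0.14. Against the contralateral library none was 2-fold different, with a median of 0.04, and between the right hemispheres none was, with a median of 0.08. In these comparisons 3.18% and 5.17% of all genes were 2-fold higher, and 4.96% and 0.362% were 2-fold lower.

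The 1 higher gene was Des, encoding desmin, the filament protein of muscle cells. It had 42.3 normalised counts in the MCAO left hemisphere, 20.4 in the contralateral library and 17.4 in the control, 2.43 times the control (1.34 to 4.54). These are low counts, and at a pseudocount of 20 Des was not 2-fold higher. Bfsp1, a lens filament gene and the other tested gene of its list, had a log2 difference of -0.21.

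The nuclear lamins, which line the inner nuclear membrane, had a median log2 difference of 0.39 over 3 genes. Lmnb1 had 399.9 normalised counts in the MCAO left hemisphere, 278 in the contralateral library and 272 in the control. Lmna had 992, 774 and 756 in the same libraries and was 1.31 times the control (1.19 to 1.45). The 5 neuronal filament genes had a median of 0.30, with none 2-fold higher. Nefl, the light neurofilament subunit, had 10643 normalised counts in the MCAO left hemisphere, 12086 in the contralateral library and 12108 in the control. Nefm, the medium subunit, had 15799.6, 14806 and 12491. The 11 keratins in the table had a median of -0.17 and ran between -0.77 for Krt77 and 0.51 for Krt2.

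**Figure D3:**
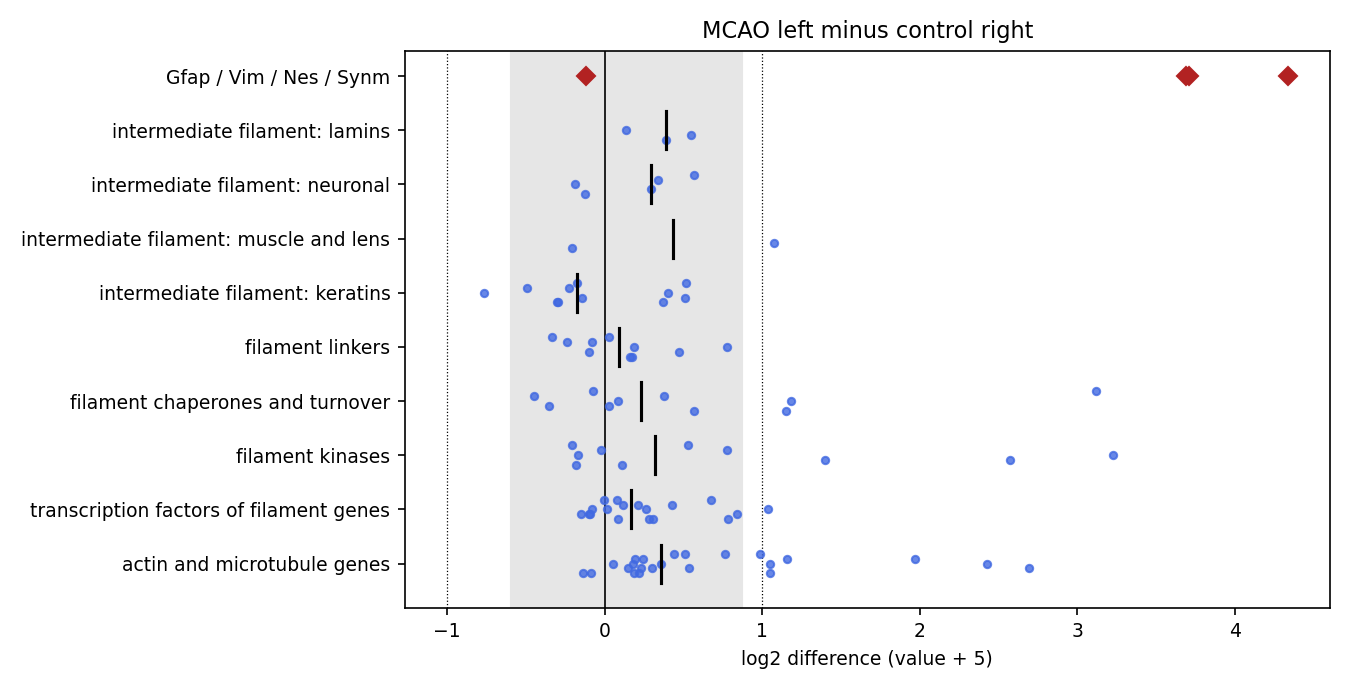
Log2 difference of the MCAO left library from the control, on the log2(value + 5) scale, for the 4 genes (diamonds) and for the lists of filament and cytoskeleton genes (dots; vertical bars are list medians, grey marks the central 90% of all genes tested, dotted lines mark 2-fold). Gfap, Vim and Nes lie between 3.69 and 4.33, above every gene of these lists, and Synm lies at -0.12.

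Linker genes encode proteins that tie filaments to membranes, junctions and other cytoskeletal fibres. Of 10 tested none was 2-fold different in the MCAO left hemisphere from the control or from the contralateral library, and both medians were 0.09. Over all genes the shares higher and lower were 4.12% and 1.25% against the control, and 3.18% and 4.96% against the contralateral library. For 10 genes a count of none is near these shares. Plec, encoding plectin, which cross-links intermediate filaments, had 1666 normalised counts in the MCAO left hemisphere, 1466 in the contralateral library and 1787 in the control. The largest positive difference among the linkers was that of Ppl, encoding periplakin, at 0.78.

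Small heat shock proteins, which bind filaments, were the chaperones with the largest differences. Of 10 genes for chaperones and turnover, 3 passed the 2-fold size in the MCAO left hemisphere over the control and 1 over the contralateral library, with medians of 0.23 and 0.06. Over all genes the shares were 4.12% and 3.18%. Hspb1, a small heat shock protein, had 399.9 normalised counts in the MCAO left hemisphere, 59.4 in the contralateral library and 41.6 in the control, 9.60 times the control (6.98 to 13.5). Cryab, encoding alpha-B crystallin, a chaperone found with Gfap in the Rosenthal fibres of Alexander disease, had 2408, 1292 and 1056 in the same libraries. Hspb8, another small heat shock protein, was 2.24 times the control (1.98 to 2.54).

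Of 10 kinases known to phosphorylate filament proteins, 3 passed the 2-fold size over the control and 2 over the contralateral library, with medians of 0.32 and 0.28. The shares of all genes past that size were 4.12% and 3.18%. The 3 kinases higher than the control drive cell division. Cdk1 had 251 normalised counts in the MCAO left hemisphere, 34.6 in the contralateral library and 22.3 in the control. Aurkb had 82.3, 10.6 and 9.69, and Plk1 had 84.7, 48.8 and 29.1. The right hemisphere values of these 3 kinases are low counts. Rock1, a kinase that acts downstream of RhoA, had the next largest difference, 0.78.

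Transcription factors that are known regulators of these filament genes or of glial fate had 18 of 19 genes past the filter. Each had a smaller log2 difference from the control than Gfap, Vim and Nes, as did nearly all genes tested. The gene under the filter was Fosl1, an AP-1 subunit, with 21.2 normalised counts in the MCAO left hemisphere and the listed minimum of 1 in both right hemispheres. Of all genes 4.12% passed the 2-fold size in the MCAO left hemisphere over the control and 3.18% over the contralateral library. Of the 18 factors tested 1 and none did, counts near those shares, with medians of 0.17 and 0.09. That gene was Stat3, which carries interleukin 6 family signals to the Gfap promoter, at 2.05 times the control (1.93 to 2.18) and 1.58 times the contralateral value (1.496 to 1.67). Sox9, an astrocyte lineage factor, had 2623 normalised counts in the MCAO left hemisphere, 2446 in the contralateral library and 1522 in the control. Sox2, a progenitor factor that acts at a Nes enhancer, had 5200.3, 5473 and 3255. Both Sox genes were thus close in the left and right hemispheres of the MCAO animals and lower in the control.

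Actin and microtubule genes held a subset with large differences. Of 23 tested, 6 passed the 2-fold size in the MCAO left hemisphere over the control and 3 over the contralateral library, with medians of 0.36 and 0.32. Over all genes the shares were 4.12% and 3.18%. Tagln2, an actin-binding protein, had 1053 normalised counts in the MCAO left hemisphere, 192 in the contralateral library and 159 in the control. Tubb6, a beta tubulin, had 714, 140.2 and 129 in the same libraries. Msn, encoding moesin, which links actin to the membrane, was 3.94 times the control (3.63 to 4.28), and Tmsb4x, encoding an actin-sequestering thymosin, 2.23 times (2.17 to 2.28). Tubb6, Tagln2 and Msn were the 3 genes also higher than in the contralateral library.

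The genes with the most similar pattern were found by the distance between pairs of log2 differences from the control, over 3 libraries and 12010 genes with a mean of at least 100 normalised counts. Closest to Gfap were Capg at a distance of 0.26, Mki67 at 0.47 and S100a11 at 0.47, and closest to Vim were S100a11 at 0.36, Gfap itself at 0.66 and Spp1 at 0.76. Closest to Nes were Fn1 at 0.36, C3ar1 at 0.38 and S100a11 at 0.40. Capg, Mki67 and S100a11 had only 39, 35 and 29 reads in the control. Counting error was not carried into the distances, so their order is uncertain. Capg caps actin filaments, Mki67 marks dividing cells, S100a11 is a calcium-binding protein, Fn1 encodes fibronectin, C3ar1 is a complement receptor of myeloid cells and Spp1 encodes osteopontin. S100a11 had 538 normalised counts in the MCAO left hemisphere, 49.7 in the contralateral library and 28.1 in the control. Few genes lay near these 3, with 3, 1 and 8 genes within a distance of 0.5 of Gfap, Vim and Nes. For Synm 7617 genes did, and the closest were Plekha1, Zfp276 and Atp6ap2, each at about 0.01 (0.0092, 0.0092 and 0.011). These counts follow from the percentiles given above, since few genes have differences as large as those of Gfap, Vim and Nes. They are not a separate result.

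**Figure D4:**
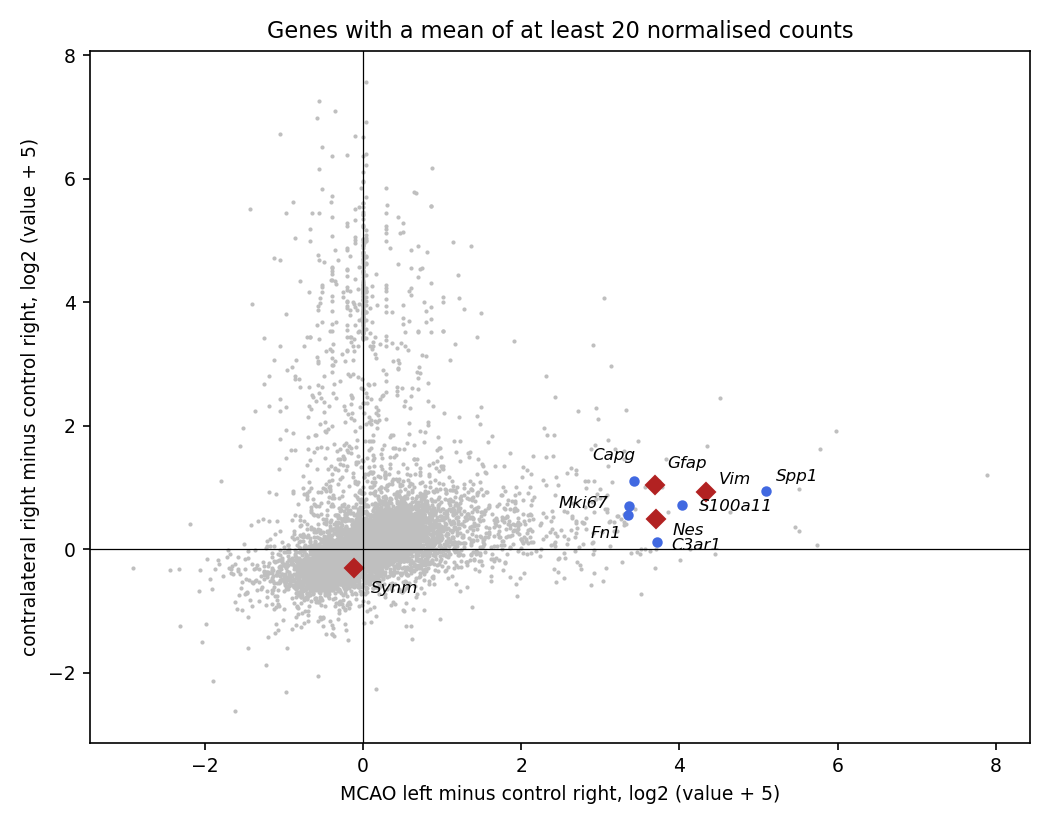
Log2 differences from the control of the MCAO left library (horizontal) and the contralateral library (vertical), on the log2(value + 5) scale, for all 14906 genes tested (grey), the 4 filament genes (diamonds) and the genes most like Gfap, Vim or Nes (blue). Both axes share the control library; Gfap, Vim and Nes lie among few genes at the right, at 3.69, 4.33 and 3.70, and Synm lies in the dense centre.

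The pull-down held transcripts of several cell types, so fewer cells of a type and less RNA per cell cannot be told apart. Astrocyte identity genes were all in the table, with a summed normalised count of 790131 in the MCAO left library, 831284 in the contralateral library and 790401 in the control. None of these 20 genes was 2-fold different in any of the 3 comparisons, with medians of 0.13 for the MCAO left library against the control, 0.04 against the contralateral library and 0.11 between the right hemispheres. Over all genes the shares 2-fold higher were 4.12%, 3.18% and 5.17%, and 2-fold lower 1.25%, 4.96% and 0.362%. Aqp4, the water channel of astrocyte endfeet, was 1.25 times the control (1.21 to 1.28) in the MCAO left hemisphere, and Slc1a3, a glutamate transporter, 0.695 times (0.685 to 0.705). Neuron genes were present too, with a sum of 455538 in the MCAO left library, 464737 in the contralateral library and 526283 in the control. The median of their 18 differences from the control was -0.19.

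Vim is also made by vascular, fibroblast and myeloid cells, Nes by endothelial and mural cells, and Synm by smooth muscle cells, so their markers are given here for the MCAO left hemisphere against the control. In the microglia list 15 of 20 genes passed the 2-fold size, against 4.12% of all genes, the median being 1.53. The list's sum was 37731 in the MCAO left library, 12916 in the contralateral library and 12768 in the control. Of 9 macrophage and activated myeloid genes tested 8 were higher, with a median of 2.93, and the sum over all 11 was 12881, 972 and 604 in the same libraries. Vim, Gfap and Nes and most myeloid markers were thus higher in the MCAO left hemisphere than the control. Between the right hemispheres the median was 0.08 for the microglia list and 0.36 for the macrophage and activated myeloid list. Of the 20 microglia genes 12 were positive there and 3 were 2-fold higher, beside 5.17% of all genes. All 9 macrophage and activated myeloid genes tested were positive there, none 2-fold higher, and the largest difference was 0.94. Gfap, Vim and Nes had log2 differences of 1.05, 0.93 and 0.50 there. The part of myeloid cells in the values of the filament genes was not tested.

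Vascular markers moved little between the MCAO left hemisphere and the control, where 4.12% of all genes were 2-fold higher. None of 14 endothelial genes tested passed the 2-fold size, with a median of 0.13, and the sum over all 15 endothelial genes in the table was 1919.7 in the MCAO left library, 1403 in the contralateral library and 1620.3 in the control. Of 11 mural genes 1 was higher, Cspg4, with a list median of 0.12. Cspg4 is also a marker of oligodendrocyte precursors, and 2 of 10 genes of that list were higher, with a median of 0.10. The smooth muscle genes Acta2 and Myh11 were 0.942 times (0.737 to 1.20) and 0.984 times (0.655 to 1.47) the control. They were picked from the mural list after their values were seen, and 6 of its 11 genes had a positive difference. None of 9 perivascular fibroblast genes was 2-fold higher, with a median of 0.19, and none of 12 oligodendrocyte genes, with a median of 0.27. No marker of the endothelial, mural or fibroblast lists that was in the table was listed at the minimum of 1 in any library. Against the contralateral library the endothelial median was 0.38, with Tek and Vwf 2-fold higher in the MCAO left hemisphere, beside 3.18% of all genes. Between the right hemispheres the endothelial median was -0.32, with 3 of the 14 genes positive.

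Neural progenitor genes are the usual company of Nes. Of 15, 2 passed the 2-fold size in the MCAO left hemisphere over the control and 1 over the contralateral library, with medians of 0.19 and -0.11. Between the right hemispheres the median was 0.40, with 12 of 15 positive and 2 genes, Prom1 and Hes5, 2-fold above the control. Over all genes the shares 2-fold higher in these comparisons were 4.12%, 3.18% and 5.17%. Fabp7, a lipid-binding protein of radial glia, had 7013 normalised counts in the MCAO left hemisphere, 3357 in the contralateral library and 2547 in the control. Tnc, encoding the matrix protein tenascin C, had 401, 265 and 179. Each of the 15 had a smaller log2 difference from the control than Nes, the highest being 1.46. Only 21 of all genes tested exceeded Nes, so this says little about the list.

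**Figure D5:**
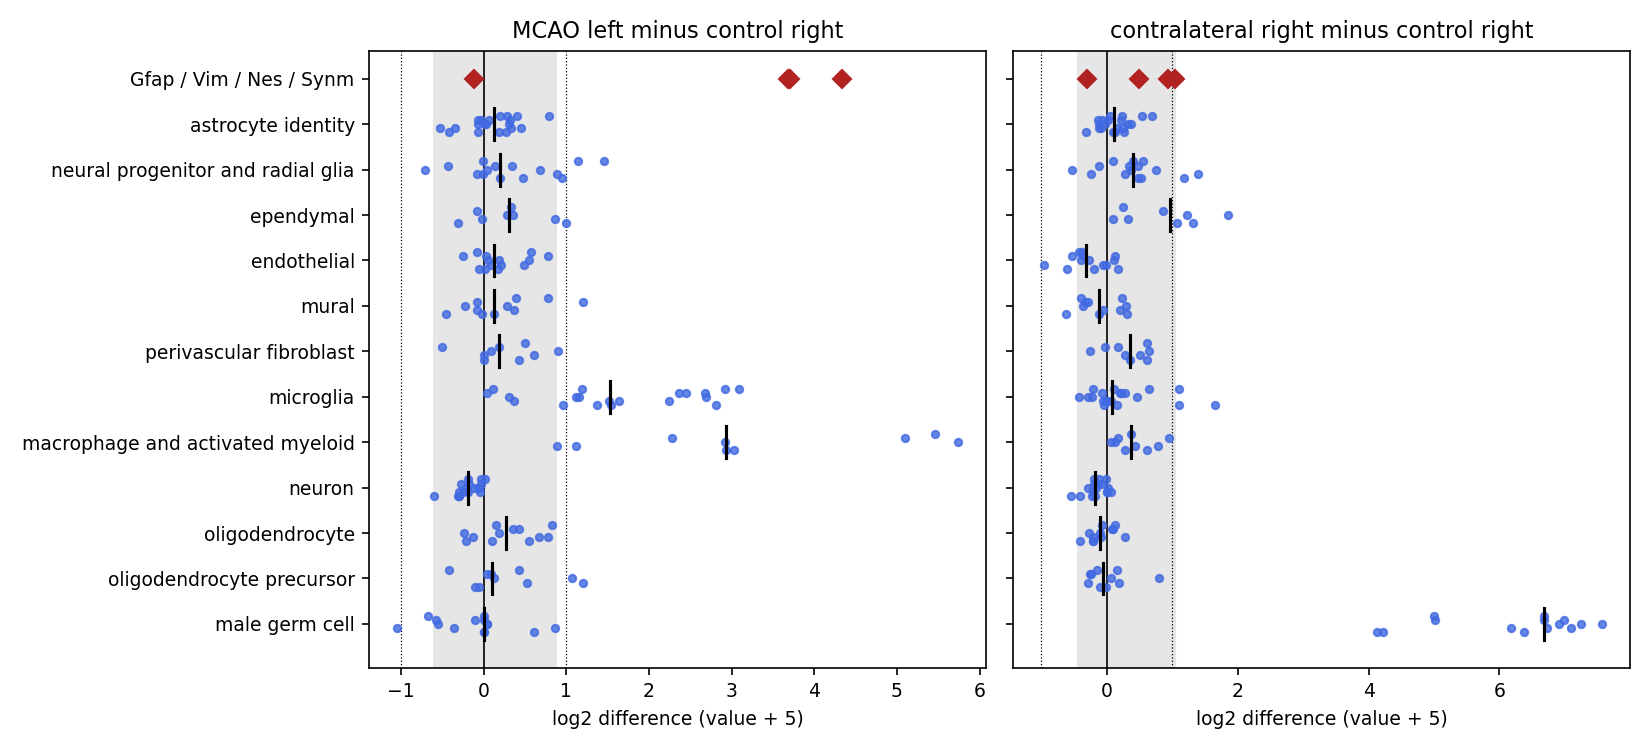
Log2 differences from the control on the log2(value + 5) scale for the 4 filament genes (diamonds) and cell type marker lists (dots; vertical bars are medians, grey marks the central 90% of all genes tested, dotted lines mark 2-fold), for the MCAO left library on one panel and the contralateral library on the other. Myeloid lists lie to the right in the MCAO left library, with medians of 1.53 and 2.93, and the male germ cell list in the contralateral library, with a median of 6.69.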

How the data were processed

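RNA from RiboTag pull-downs was measured in 3 libraries, each a pool of 3 animals with 2 technical replicates per the series design. The deposited signal is a normalised count: the authors divided each library's counts by 1 size factor, and values below 1 are listed as 1. Per the submitters' processing notes, the build was mm10 and the tools included DESeq2, R 3.3.1, Partek 6.6, HISAT2 2.0.11 and CASAVA 1.8, with no roles given. Strand of counting was not given in the sources used here.

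Reads were recovered from the value of 1 read in each column, 1.18 in the MCAO left, 0.887 in the contralateral and 0.969 in the control library. In each column 99.9% of values above 1 were whole within 0.1 read. Totals were 25930258, 33886651 and 31834121 reads. A value of 1 was taken as 0 reads in the MCAO left library and 1 read in the others. Ratios use the normalised counts, with exact Clopper-Pearson intervals, and ratios of ratios use a normal approximation on the log scale. Calls used log2(value + 5) differences of at least 1 over the 14906 genes whose mean was 20 or more, and this scale understates differences of low genes.

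The genes and 21 lists were chosen with earlier results of these data known. Named genes are the 4 filament genes, up to 4 genes per list with the largest absolute difference of the MCAO left library from the control, 9 further fixed genes (Aqp4, Slc1a3, Stat3, Sox9, Plec, Lmna, Nefl, Cryab, Fabp7) and the 3 most similar genes per filament gene. Predicted genes were skipped among similar genes. Acta2, Myh11, Ak7 and Fosl1 were named after their values were seen. Coordinates and promoters came from RefSeq tables for GRCm38.p6, in which 15912 of 16610 symbols were found. Python 3.11.15, pandas 2.3.3, numpy 2.4.6, scipy 1.17.1 and matplotlib 3.10.9 were used.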

Additional observations from a re-analysis of the deposited data

How the results depend on the processing

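With pseudocounts of 1 and 20, scaling to library totals, TMM scaling and scaling to the median of the astrocyte identity genes, the log2 differences of the 4 genes kept their sign in all 3 comparisons. The difference of the MCAO left hemisphere from the control lay between 3.61 and 3.70 for Gfap, 4.26 and 4.35 for Vim, 3.59 and 3.74 for Nes, and -0.19 and -0.10 for Synm. Scaling to the astrocyte identity genes left 0 of the 4 genes 2-fold above the control in the contralateral library. Among the other filament genes, a pseudocount of 1 gave 1 gene higher than in the contralateral library, and a pseudocount of 20 gave 0 higher than in the control. With no filter on low values 1415 genes of the contralateral library were above the control, against 771. With a mean of at least 100, 283 genes were higher in the MCAO left library than in the control, against 614, and 231 than in the contralateral library, against 474. That filter left 188 genes of the contralateral library above the control, and 0 of 12 other filament genes higher in the MCAO left library than in the control; fewer genes are tested under it. A filter that leaves out the contralateral library, chosen after the data were seen, gave 620 genes and 3 of the 4 filament genes higher than in the control. No paired analysis was possible because each group has 1 library. Counting error limits Nes most, with 168 reads in the control.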

Other observations

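Ependymal genes, another group of cells with much vimentin, were not 2-fold higher in the MCAO left hemisphere than in the control in any of 8 tested, and had a median log2 difference of 0.31. The share over all genes in that comparison was 4.12%. In the contralateral library 4 of the 8 passed the 2-fold size over the control, the median being 0.96, while 5.17% of all genes were. Rsph1, a component of the radial spokes of motile cilia, had 178 normalised counts in the MCAO left hemisphere, 509 in the contralateral library and 138 in the control. Rsph1 and Ak7 are also active in sperm, and the part of germ cell transcripts in these values was not tested.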
